A study of Gallus gallus with 3 samples.

Results

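The solute carrier (SLC) genes measured in chicken DT40-ASF B cells are described here across 3 RNA-seq libraries. Members were chosen by name and depth: a gene symbol beginning with SLC and a digit, and at least 30 read counts summed over the 3 libraries. The rule took 192 of the 251 such genes in the count table, which held 11877 genes in all. All 192 had a deposited FPKM value and all 192 entered the test across genes.

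DT40 is a B cell line from a chicken bursal lymphoma. From general knowledge of its derivative DT40-ASF, such cells lack the chicken gene for the splicing regulator SRSF1 and live on a human version, named ASF; the labels call all 3 samples reconstituted cells. The control was 1 library of untransfected DT40-ASF cells. The knock-in group was 2 libraries of DT40-ASF cells carrying an SRSF1-3 knock-in, clone 41 and clone 47, each from a single clone. All were grown in the same medium. Transfection and clonal history differ from the control along with the knock-in, and the 3 cannot be told apart. With 1 library per clone, p-values measure only the spread between these libraries. In cultures measured in bulk, fewer cells that express a gene and less RNA per cell cannot be told apart either.

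Solute carriers move small molecules across membranes by facilitated diffusion, by exchange or by coupling to an ion gradient. Amino acid and glucose carriers of the plasma membrane feed growth in dividing lymphoid cells. The SLC25 family lies mainly in the mitochondrial inner membrane, where it exchanges nucleotides, phosphate and metabolites with the cytosol. Roles below are those known for the mammalian proteins. Sets of 3 values are in the order control, clone 41, clone 47, and pairs of ratios to the control are in the order clone 41, clone 47.

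The libraries held 44868987, 42439517 and 41760372 counts. SRSF1 itself had 1402, 1991 and 5645 counts, so both clones lay above the control. Counts per gene do not separate its isoforms. Whether these reads came from the chicken gene, the human version or the knock-in was not tested. All 11 B cell markers listed were detected, and their summed levels in CPM, counts per library size after TMM scaling, were 1014, 914 and 629.95. They did not shift evenly: in clone 47, 4 lay above the control and 7 below it. At least 2-fold lower there were 4 (36.4%, beside 7.57% of all tested genes), and 0 were at least 2-fold higher (beside 9.42%). The 7 T cell markers summed to 34.5, 17.7 and 30.4 CPM. Of these CD8A had 22.4, 8.88 and 21.1 CPM and CD3D had 5.95, 7.32 and 5.32. CD28 had 225, 45 and 28 counts, LCK 12, 5 and 113, and CD3E 38, 10 and 33. ZAP70 had 1, 0 and 3 counts and CD4 had 1, 0 and 0. The 5 myeloid markers measured summed to 36.5, 35.7 and 6.17 CPM, nearly all from MPEG1. Of the erythroid and thrombocyte markers 1 was measured, GP9, at 1 count in the control and 0 in both clones. The 6 fibroblast and epithelial markers summed to 20.1, 29.4 and 15.8 CPM. The part of these shifts in the results below was not tested.

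The SLC members held 1.38% of the control's counts (exact binomial 95% interval 1.378% to 1.385%), 1.44% of those of clone 41 (1.434% to 1.442%) and 1.27% of those of clone 47 (1.270% to 1.277%). These intervals, and those of all ratios below, cover counting error only, since each condition is 1 library and PCR copies are not independent molecules. The 10 members with the most counts in a library made up 36.02%, 38.5% and 32.4% of SLC counts. The median member had an FPKM (fragments scaled to transcript length and library size, used here for every comparison of level between genes) of 7.17, 6.77 and 7.79. The median of all tested genes was higher in each library, at 11.1, 10.3 and 10.7. An FPKM of at least 1 in every library was reached by 143 members, while 30 stayed below 1 in every library.

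At the edge of the counting rule, SLC24A3, a sodium/calcium-potassium exchanger, and SLC16A3, the lactate exporter MCT4, were members with 30 counts, and SLC26A6 with 31. Just outside were SLC7A10 with 28 and SLC35F4 with 25. SLC16A3 had 21, 9 and 0 counts. Its FPKM was 3.43, 2.78 and 0.932. With its count of 0 in clone 47 set to a floor of 3 counts, it was 6.77-fold below the control. This value leaves out counting error, and the FPKM ratio did not reach it.

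The most abundant transporters were 3 mitochondrial carriers and an amino acid exchanger. The phosphate carrier SLC25A3, which supplies the matrix with phosphate for ATP synthesis, had an FPKM of 339.6, 437 and 166. The ADP/ATP carrier SLC25A6 was at 326, 419 and 222. Its paralogue SLC25A5 was at 309, 278 and 391. The leucine exchanger SLC7A5 (LAT1), which brings in large neutral amino acids, was at 287, 398 and 176. These 4 held the first 4 places among SLC members in all 3 libraries, in an order that differed between libraries, with SLC25A3 first in the control and clone 41 and SLC25A5 first in clone 47. The next in each library was SLC1A4, a carrier of alanine, serine and cysteine, at 145, 128 and 106.

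**Figure D1:**
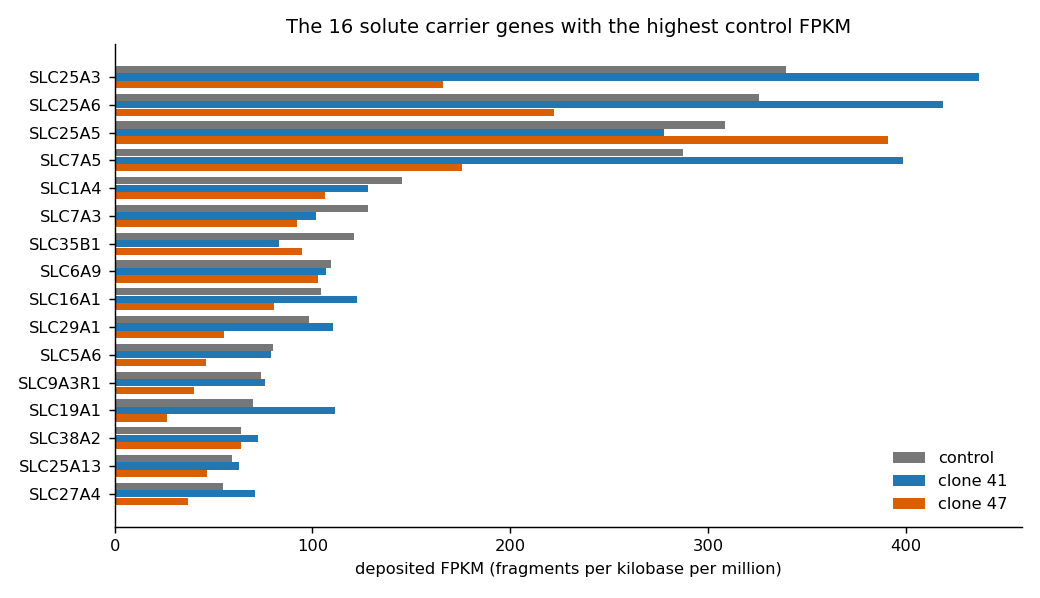
Deposited FPKM of the 16 SLC members with the highest control FPKM, as bars for the control, clone 41 and clone 47 (1 library each, no error bars). SLC25A3, SLC25A6 and SLC7A5 are highest in clone 41 and lowest in clone 47, while SLC25A5 is highest in clone 47.

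Sorted by substrate, the members fell into 11 classes, of which inorganic ion carriers (33 members) and SLC25 carriers (31) were the largest. SLC25 carriers held 26.9%, 28.4% and 25.2% of SLC counts. Amino acid carriers held 22.2%, 20.6% and 19.7%. Sugar carriers held 3.18%, 2.93% and 4.76%. Median FPKM in the control was 15.2 for SLC25 carriers, 12.6 for the SLC35 class of nucleotide sugar carriers, 9.83 for metal ion carriers and 5.74 for amino acid carriers. It was 3.32 for carriers of nucleosides, vitamins and choline. An SLC symbol does not always name a transporter: 5 members are other proteins, among them the scaffold SLC9A3R1 (NHERF1), with an FPKM of 74.0, 76.0 and 40.3, and SLC7A6OS, with 40.8, 49.7 and 34.6.

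**Figure D2:**
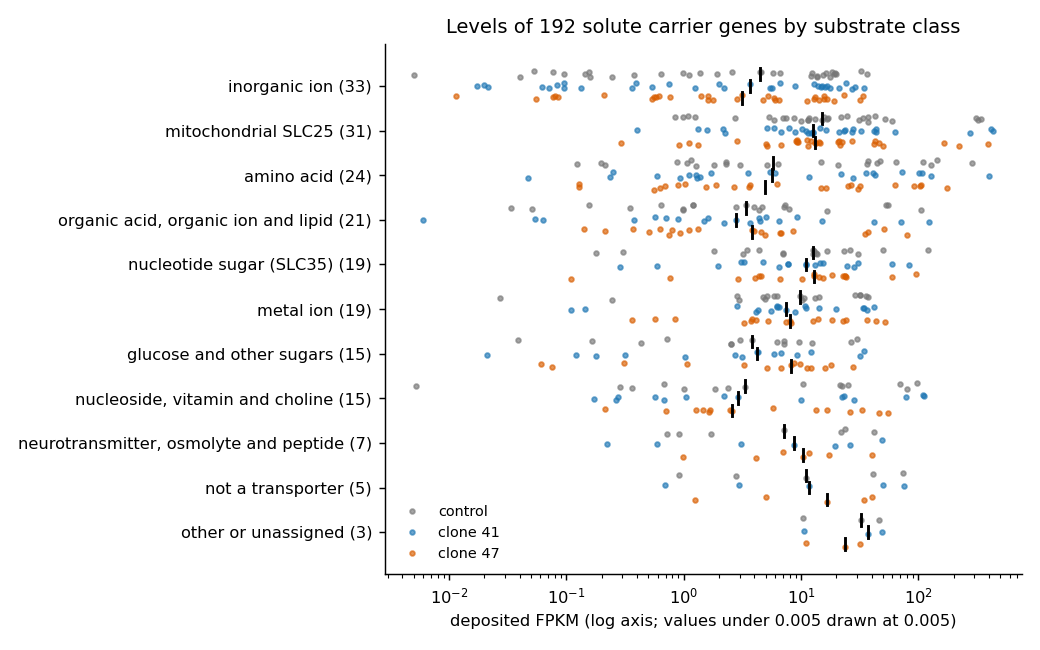
Deposited FPKM (log axis) of each of the 192 members by class, with 1 point per gene and library and a black bar at each median; the class size is in brackets. Most classes span more than 2 orders of magnitude, and the SLC25 class has the highest control median (15.2) among the classes with more than 5 members.

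Knock-in against control was tested across all 10203 expressed genes with edgeR's quasi-likelihood F test and Benjamini-Hochberg adjustment. No member passed at an adjusted p of 0.05, and neither did any other gene (0% of genes called); every member had an adjusted p of 1. At an unadjusted p below 0.05 there were 3 members, 1.56% of the 192, beside 81 of all tested genes, 0.794%. edgeR's legacy estimator called 2 genes, DESeq2 also 2 and limma-voom 1, none of them a member. At an unadjusted p below 0.05 those tests had 3, 3 and 1 members. The newer edgeR fit had 1 member in place of 3 with total-count scaling, 1 with DESeq2 size factors and 1 with no filter on low counts, so the 3 genes described next depend on these settings. The fit has 1 residual degree of freedom and takes the lone control to vary like the clones, so what follows describes each clone's library against the control library without a test.

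The 3 members at an unadjusted p below 0.05 all belong to the sodium-coupled SLC5 family. Not every member of that family moved with them: SLC5A6 was at 1.00 and 0.554 times the control. SLC5A9, a sodium-coupled sugar carrier, had 644, 679 and 2648 counts, with clone 47 alone standing apart. edgeR fitted 1.44 for its log2 difference, knock-in minus control (SE 0.68, adjusted p = 1). SLC5A3, the myo-inositol carrier that cells use for osmotic balance, had 279, 464 and 1078 counts, higher in both clones than in the control. For it edgeR fitted 1.55 on the log2 scale (SE 0.74, adjusted p = 1). SLC5A7, the high-affinity choline carrier, had 0, 45 and 61 counts, and was named after its values were seen. The control alone had a count of 0 for it, although its deposited FPKM in the control was above 0. Against a floor of 3 counts in the control library it was at least 16.7-fold higher in clone 41 and at least 21.0-fold higher in clone 47. Its level stayed low, with an FPKM of 0.00522, 0.173 and 0.212.

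By size, clone 41 lay close to the control. At least 2-fold higher than the control (log2 CPM with a prior count of 2) were 3 members, 1.56%, where 3.2% of all tested genes were. At least 2-fold lower were 14 members, 7.29%, where 5.55% of all tested genes were. The median log2 ratio of the members was 0.01, and that of all tested genes -0.0015. The 3 higher members were all of low level, and were named after their values were seen: SLC5A7, the zinc and manganese carrier SLC39A8 (3 and 11 counts) and SLC25A29, a mitochondrial carrier of basic amino acids (73 and 176 counts).

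Clone 47 differed more widely. At least 2-fold higher than the control were 24 members, 12.5%, where 9.42% of all tested genes were, and at least 2-fold lower were 19 members, 9.9%, where 7.57% were. The members' median log2 ratio was -0.04, beside 0.0026 for all tested genes. The SD over members of the log2 ratio was 0.65 in clone 41 and 1.07 in clone 47, and over all tested genes 0.63 and 0.88. Between the clones, 33 members (17.2%) were at least 2-fold higher in clone 47 than in clone 41, where 12.2% of all tested genes were, and 24 (12.5%) were at least 2-fold lower, where 8.67% were. The share higher in clone 41 was below the background and the others were somewhat above it. These comparisons share libraries with each other, so they are not independent.

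Much of this spread sat in poorly expressed genes. Among the 44 members with a mean CPM below 5, 15 were at least 2-fold higher in clone 47 (34.1%, beside 27.8% of all tested genes of that level) and 7 were lower (15.9% beside 18.4%). Among the 148 members with a mean CPM of at least 5, 9 were at least 2-fold higher in clone 47 (6.08%, where 4.11% of all such genes were) and 12 were lower (8.11%, where 4.42% were). In clone 41 these numbers were 0 higher (where 0.683% were) and 3 lower (2.03%, where 1.1% were). Between the clones, 12 were higher in clone 47 (where 5.73% of all such genes were) and 15 were lower (where 6.12% were). Of the 12 lower in clone 47, 7 had a mean CPM of 25 to 100, which is 11.5% of the 61 members there, beside 3.65% of all tested genes of that level. At 5 to 25 CPM 4 were lower (9.09% beside 6.62%), and at 100 CPM or more 1 was (2.33% beside 3.81%).

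**Figure D3:**
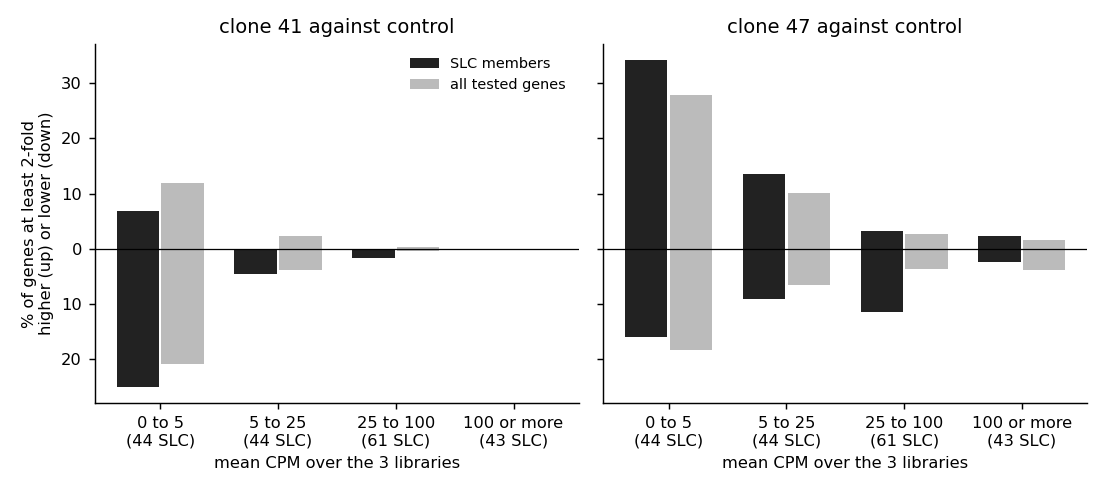
Share of genes at least 2-fold higher (upward bars) or lower (downward bars) than the control in each clone, by mean CPM, for SLC members (black) and all tested genes (grey). The shares are largest below 5 CPM in both sets. In clone 47 the lower share of members at 25 to 100 CPM is 11.5% beside 3.65%, and at 100 CPM or more it is 2.33% beside 3.81%.

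Amino acid carriers, 24 members, had a median log2 ratio of -0.02 in clone 41 and -0.36 in clone 47. In clone 47 19 of 24 were below the control, beside 5085 of all 10203 tested genes. By mean CPM, 1007 of 2291 tested genes under 5 were below it and 901 of 1919 at 5 to 25. At 25 to 100 CPM 1689 of 3397 were, and at 100 or more 1488 of 2596. The amino acid carriers are spread over these levels. In clone 41 2 members were at least 2-fold lower (8.33%, beside 5.55% of all tested genes) and 0 higher (beside 3.2%). In clone 47 3 were higher (12.5% beside 9.42%) and 3 lower (12.5% beside 7.57%), shares near those of all genes. SLC7A5 had 369.6, 556 and 233 CPM. Clone 41 was thus at 1.503 times the control (interval 1.47 to 1.53) and clone 47 at 0.629 times (0.614 to 0.645). The heavy subunit SLC3A2 with which it pairs, and the glutamine carrier SLC1A5, were not analysed here.

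Other abundant amino acid carriers varied in how far they lay from the control. SLC38A2, a glutamine and alanine carrier, was at 1.18 times the control in clone 41 and 0.985 times in clone 47, and its relative SLC38A1 was at 0.972 and 0.619 times. The glycine carrier SLC6A9 was at 1.02 and 0.941 times the control. SLC7A3, which takes up arginine and lysine, was at 0.833 and 0.722 times, and SLC1A4 at 0.916 and 0.762 times. The cystine/glutamate exchanger SLC7A11, which supplies cystine for glutathione, had 13286, 7600 and 9256 counts. Both clones lay below the control for it, at 0.638 times (interval 0.620 to 0.656) and 0.720 times (0.701 to 0.740).

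The larger ratios in this class belonged to less abundant members. SLC7A4, of the cationic amino acid carrier family, had 517, 204 and 178 counts, and SLC3A1, a heavy subunit of cystine transport, had 392, 191 and 255. SLC38A6, of the family of SLC38A1, was near the control in clone 41 (0.952 times) and at 0.348 times in clone 47 (interval 0.296 to 0.407). SLC6A14, a broad carrier of neutral and cationic amino acids, was at 1.19 and 2.23 times. SLC38A7, a lysosomal glutamine carrier, was at 1.65 and 1.46 times. The intestinal and renal type carriers SLC6A19 and SLC7A7 were at opposite ends in clone 47; their values were known when they were picked for naming. SLC6A19 had 211, 109 and 22 counts, and SLC7A7 had 21, 5 and 128.

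Among the 15 sugar carriers the median log2 ratio was -0.03 in clone 41 and 0.38 in clone 47. In clone 47 11 of 15 were above the control, beside 5115 of all 10203 tested genes. In clone 41 0 were at least 2-fold higher (beside 3.2% of all tested genes) and 4 lower (26.7% beside 5.55%). Among the 11 with a mean CPM of at least 5, 1 was lower (9.09%, beside 1.1% of all tested genes of that level). Below 5 CPM, 20.9% of all tested genes were lower in clone 41. In clone 47 2 were higher (13.3% beside 9.42%) and 2 lower (13.3% beside 7.57%). SLC2A1 (GLUT1), the basal glucose carrier of most cells, had 2438, 2660 and 962 counts, which puts the clones at 1.22 times the control (interval 1.15 to 1.29) and 0.408 times (0.378 to 0.440). SLC2A3 (GLUT3), of higher glucose affinity, had 2719, 3055 and 2744 counts, and clone 47 was within counting error of the control at 1.04 times (0.989 to 1.10). In the control and in clone 41 the 2 genes had nearly equal FPKM (30.1 and 26.7, then 34.4 and 31.7), while in clone 47 SLC2A1 was at 12.2 and SLC2A3 at 27.7.

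Of the other SLC2 members 2 were above the control in clone 47 by counts and 2 below (SLC2A6 and SLC2A8). SLC2A6 had 19, 15 and 6 counts. SLC2A8 was at 0.661 times the control in clone 47 by counts, but its FPKM was 7.15, 6.78 and 6.76. Of those above, SLC2A13, a myo-inositol carrier, was at 0.982 and 1.47 times and SLC2A12 at 0.475 and 1.51 times. SLC45A3, of the sucrose carrier family, had 882, 338 and 2786 counts. It was lower than the control in clone 41 and higher in clone 47, and the clones differed 7.64-fold (interval 6.82 to 8.58). SLC5A9 was at 1.18 and 4.25 times the control. SLC37A4, which takes glucose 6-phosphate into the endoplasmic reticulum, was at 0.585 and 1.41 times, and SLC37A2, of the same family, at 1.01 and 1.30 times.

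Inorganic ion carriers, 33 members, had medians near 0 in both clones (-0.03 and 0.03). In clone 47 7 members were at least 2-fold higher (21.2%, beside 9.42% of all tested genes) and 4 lower (12.1% beside 7.57%). In clone 41 0 were higher (beside 3.2%) and 4 lower (12.1% beside 5.55%). Of these 33 members 12 had a mean CPM below 5, where such ratios were most frequent among all genes. SLC9A7, a sodium/proton exchanger of the Golgi and endosomes, was at 1.13 and 0.788 times the control. Potassium/chloride cotransporters, which carry salt out of the cell, were near the control or above it: SLC12A4 was at 1.52 and 1.75 times and SLC12A5 at 0.996 and 0.958 times. The inward sodium/potassium/chloride cotransporter SLC12A2 was at 0.878 and 0.916 times.

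Bicarbonate carriers of the SLC4 family differed among themselves. SLC4A3, an anion exchanger, had 184, 162 and 749 counts, so that clone 47 was at 4.21 times the control (interval 3.58 to 4.97). SLC4A4, a sodium bicarbonate cotransporter, had 832, 308 and 815 counts, and only clone 41 of the 2 clones stood apart, at 0.413 times (0.361 to 0.471). SLC26A8, of the SLC26 anion exchanger family, was at 0.983 and 2.40 times. The phosphate importer SLC20A1 was at 1.00 and 0.820 times.

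For the other phosphate importer, SLC20A2, named because its measures disagree, the count ratios were 0.613 and 1.06. Its FPKM was 12.2, 6.61 and 6.44, so the 2 deposited measures differed by 1.00 on the log2 scale in clone 47. Such a gap above 0.5 was found for 3 of 148 members of at least 5 mean CPM in clone 47 (SLC20A2, SLC2A8 and SLC7A9) and for 0 in clone 41.

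Metal ion carriers, 19 members, had median log2 ratios of 0.04 and 0.19. SLC30 proteins move zinc out of the cytosol and SLC39 proteins move it in. The zinc exporters to the secretory pathway SLC30A5 and SLC30A4 had their highest CPM in clone 47. SLC30A5 was at 1.11 and 1.31 times the control. SLC30A4 was within counting error of it in clone 41, at 1.03 times (interval 0.992 to 1.06), and at 1.38 times in clone 47. The importers SLC39A6 and SLC39A10, known partners in one complex, were both low in clone 47. SLC39A6 had 6110, 6453 and 3085 counts, at 1.18 times the control in clone 41 and 0.522 times in clone 47 (interval 0.4996 to 0.545). SLC39A10 had 1904, 1333 and 689 counts, at 0.780 and 0.374 times (0.342 to 0.408). SLC39A9 went the other way in clone 47, at 0.900 and 1.86 times, and all the remaining SLC39 members were also above the control there. Of these SLC39A8 had 3, 11 and 64 counts. The remaining SLC30 members lay on both sides of the control in clone 47. SLC41A3, of a magnesium carrier family, had 424, 699 and 105 counts, so clone 41 was above and clone 47 below the control, and the clones differed to a ratio of 0.139 (clone 47 over clone 41, interval 0.112 to 0.171).

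Mitochondrial SLC25 carriers, 31 members, had a median log2 ratio of 0.06 in clone 41 and -0.28 in clone 47. Their log2 ratios in clone 47 ran from -1.23 to 0.82. Genes of this family under other symbols, such as UCP3 and MTCH2, were not counted among the 31. In clone 47 UCP3, at low counts (93, 92 and 247), was at 2.75 times the control and MTCH2 at 0.460 times. Among the 31 members, in clone 41 1 was at least 2-fold higher (3.23%, beside 3.2% of all tested genes) and 1 lower (3.23% beside 5.55%). In clone 47 0 were higher (beside 9.42%) and 2 lower (6.45% beside 7.57%), and 21 of 31 were below the control, beside 5085 of all 10203 tested genes. SLC25A3 had 23046, 27383 and 11183 counts, so clone 41 was at 1.32 times the control (interval 1.30 to 1.35) and clone 47 at 0.502 times (0.490 to 0.513). SLC25A46, an outer membrane protein tied to mitochondrial fission and fusion, was at 0.796 and 0.455 times.

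The 3 ADP/ATP carriers, which export ATP from the matrix, differed in their proportions between libraries. SLC25A6 had 52234, 62562 and 34396 counts, SLC25A5 had 17056, 14554 and 20475, and SLC25A4 had 3793, 3588 and 1853. In the control SLC25A6 and SLC25A5 made up 48.1% and 45.6% of their summed FPKM. In clone 41 the shares were 56.6% and 37.5%, and in clone 47 they were 34.96% and 61.5%. SLC25A6 was thus the leading form in clone 41 and SLC25A5 in clone 47, while the summed CPM of the 3 was 1.23 times the control in clone 41 and 0.802 times in clone 47. These genes are close paralogues, and how reads that match more than 1 of them were assigned is not stated in the labels or headers, so the split between them is uncertain.

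Carriers of nucleosides, vitamins and choline, 15 members, had median log2 ratios of 0.01 and -0.34. The 11 with a mean CPM of at least 5 had a median of -0.75 in clone 47, beside -0.0195 for all tested genes of that level. In clone 47 4 members were at least 2-fold higher (26.7%, beside 9.42% of all tested genes), all with a mean CPM below 5. In the same clone 2 were lower (13.3% beside 7.57%). SLC19A1, the reduced folate carrier, had 8510, 12558 and 3143 counts. It was above the control in clone 41, at 1.64 times, and below it in clone 47, at 0.382 times (interval 0.366 to 0.398), and the ratio of clone 47 to clone 41 was 0.232. The equilibrative nucleoside carrier SLC29A1 was at 1.15 and 0.578 times, and the biotin and pantothenate carrier SLC5A6 at 1.00 and 0.554 times. SLC46A3, a lysosomal carrier, was at 0.882 and 0.488 times. SLC44A5, of the choline carrier family, was at 0.541 and 0.794 times.

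Carriers of the SLC35 family bring nucleotide sugars and other nucleotides into the endoplasmic reticulum and Golgi, and several have no known substrate. The class of 19 members leaves out SLC35F6, which was placed among the unassigned. The class medians were 0.08 and 0.23. Clone 47 had 1 member 2-fold or more above the control (5.26%, beside 9.42% of all tested genes) and 1 below (5.26% beside 7.57%). Clone 41 had 0 above (beside 3.2%) and 0 below (beside 5.55%). SLC35B1, an ATP carrier of the endoplasmic reticulum, was at 0.720 and 0.794 times the control. SLC35B2, which supplies the Golgi with the sulphate donor PAPS, had 2383, 2074 and 1022 counts and was at 0.970 and 0.443 times (interval in clone 47 0.412 to 0.477). The GDP-fucose carrier SLC35C1 was at 0.939 and 1.89 times. SLC35E3, of unknown substrate, was at 1.24 and 1.19 times.

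Carriers of organic acids, organic ions and lipids, 21 members, had medians of -0.12 and 0.03. SLC16A1 (MCT1), which carries lactate and pyruvate, was the most abundant by FPKM, at 104, 122 and 80.3. Its counts put it at 1.22 and 0.763 times the control. The fatty acid carrier SLC27A4 was at 1.35 and 0.672 times and SLC10A7, of the bile acid carrier family, at 0.831 and 0.729 times. The plasma membrane citrate importer SLC13A5 had 3418, 2818 and 9616 counts. Clone 47 alone was high for it, at 2.91 times the control (interval 2.80 to 3.02) beside 0.919 times in clone 41. SLC16A9, of the monocarboxylate carrier family, was at 0.782 and 2.30 times.

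The 7 carriers of neurotransmitters, osmolytes and peptides had median log2 ratios of 0.31 and 0.61. SLC6A13, a GABA carrier, had 126, 76 and 742 counts, at 0.672 times (interval 0.499 to 0.901) and 6.09 times (5.03 to 7.41). Next to it in the RefSeq gene order (assembly GRCg7b) lies SLC6A12, the betaine carrier, with 138, 41 and 253 counts. Both genes of this pair were below the control in clone 41 and above it in clone 47. Among the 6 adjacent pairs of members, some of the others lay the reverse way, above the control in clone 41 and below it in clone 47. The rest lay on both sides of the control in clone 41 or in clone 47. Some of these values were within counting error of the control. The osmolyte carriers went separate ways in clone 47. SLC5A3 was at 1.85 times the control in clone 41 and 3.99 times in clone 47 (interval 3.498 to 4.57), whereas the taurine carrier SLC6A6 was at 1.26 and 0.452 times (0.425 to 0.482). The lysosomal peptide and histidine carrier SLC15A4 was at 1.24 and 0.942 times, and the polyamine carrier SLC18B1 at 0.864 and 0.686 times.

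Of the 3 members left unassigned, the acetyl-CoA carrier SLC33A1 was at 1.12 and 0.680 times the control and SLC35F6 at 1.21 and 0.735 times. Among the 5 members that are not transporters, SLC9A3R1 was at 1.08 and 0.547 times and SLC7A6OS at 1.28 and 0.817 times.

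**Figure D4:**
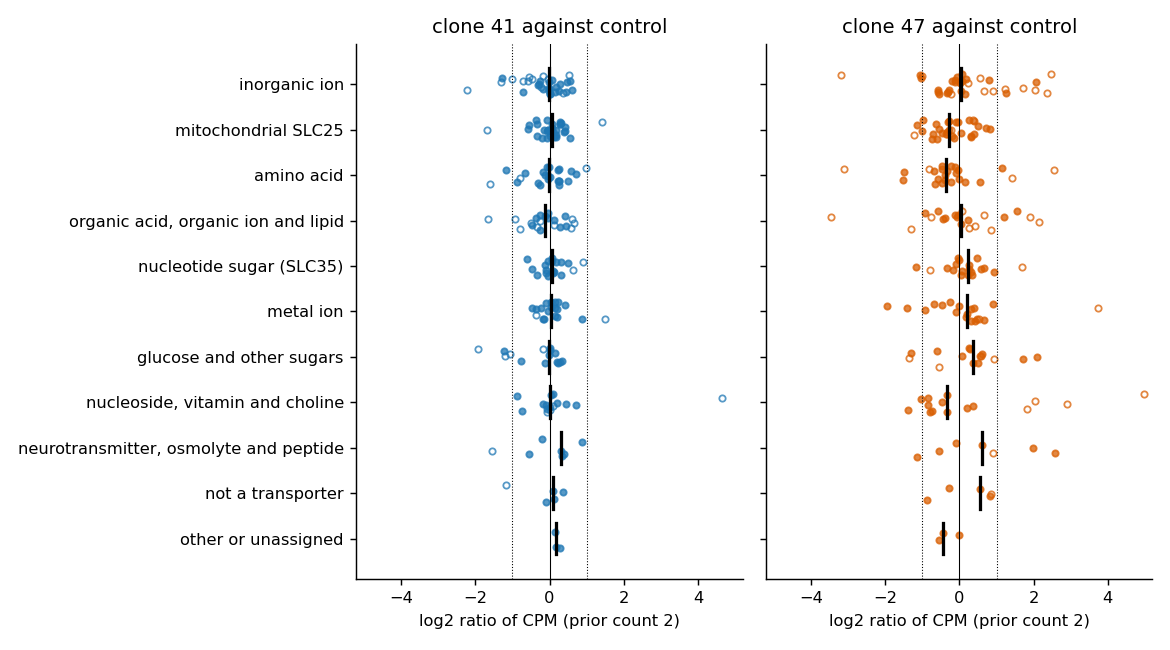
Log2 ratio of CPM (prior count 2) of each member to the control in clone 41 (left) and clone 47 (right), by class; filled points have a mean CPM of at least 5, open points less, black bars are medians and dotted lines mark 2-fold. Class medians run from -0.12 to 0.31 in clone 41 and from -0.44 to 0.61 in clone 47.

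**Figure D5:**
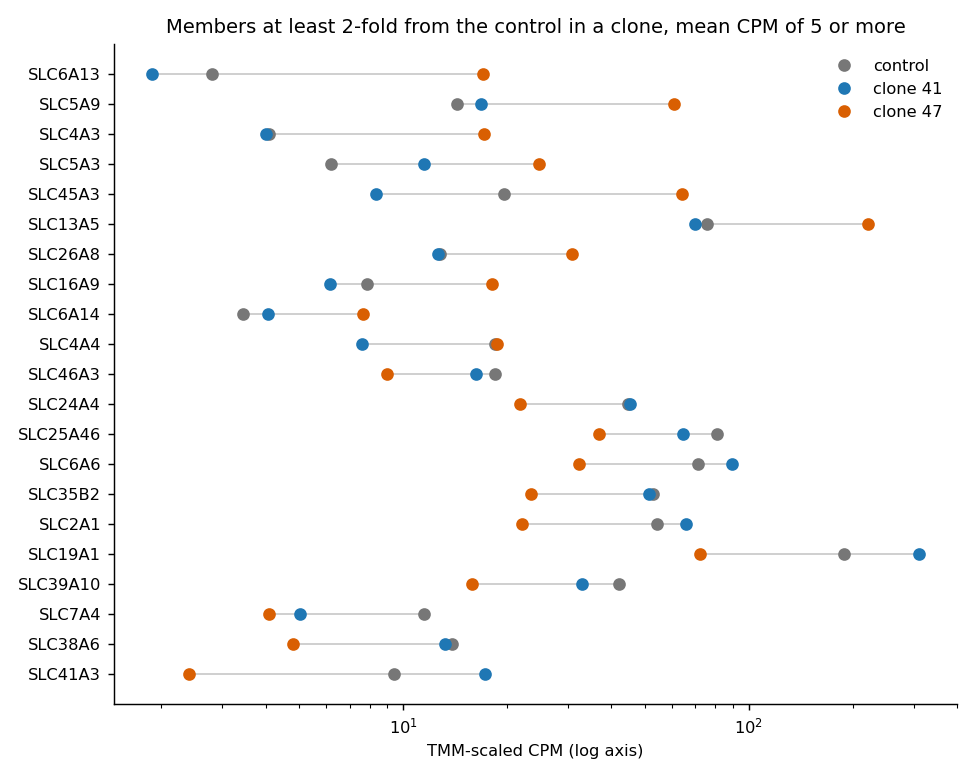
CPM (log axis) of 21 of the 22 members averaging 5 CPM or more that differ from the control by 2-fold or more in either clone, 1 point per library, ordered by the ratio in clone 47. Clone 47 is the outlying library for most of them, with SLC7A4 (both clones low) and SLC4A4 (clone 41 low) as other patterns.

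Genes that work with these carriers were read from lists of pumps, accessory proteins and nutrient sensors, and none of their genes passed edgeR's quasi-likelihood test (0 genes at an adjusted p of 0.05). P-type pumps and their beta subunits, 15 genes tested, had 0 at least 2-fold higher in either clone. Of all tested genes 3.2% were higher in clone 41 and 9.42% in clone 47. Of the 15, 1 was lower in clone 41 (6.67%, beside 5.55% of all tested genes). In clone 47 5 were lower (33.3% beside 7.57%), and the medians were 0.11 and -0.24. Among the 14 with a mean CPM of at least 5, 0 were lower in clone 41 (beside 1.1%) and 4 in clone 47 (28.6% beside 4.42%). The sarcoplasmic and endoplasmic reticulum calcium pump gene ATP2A3 had 2965, 2091 and 563 counts, and the copper pump gene ATP7B had 376, 289 and 112. Of 15 V-ATPase genes tested, which acidify lysosomes, 0 were 2-fold from the control in either clone, with medians of 0.11 and -0.07. Among all tested genes 3.2% were higher and 5.55% lower in clone 41, and 9.42% and 7.57% in clone 47. ATP6V1B2 was at 1.23 and 0.558 times and ATP6V0A1 at 0.737 and 1.68 times. Genes with an ABC family symbol, 31 tested, are not all transporters. In clone 41 they had 1 higher (3.23% beside 3.2%) and 2 lower (6.45% beside 5.55%). In clone 47 they had 3 higher (9.68% beside 9.42%) and 5 lower (16.1% beside 7.57%). Their medians were -0.07 and -0.22; ABCC3 was at 1.41 and 0.442 times and ABCC13 at 1.44 and 0.457 times.

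Nutrient sensing genes were read the same way, beside the same shares of all tested genes. These were 3.2% higher and 5.55% lower in clone 41, and 9.42% higher and 7.57% lower in clone 47. Of 18 amino acid response genes tested, 0 were 2-fold from the control in clone 41, and in clone 47 2 were higher (11.1% beside 9.42%) and 1 lower (5.56% beside 7.57%), with medians of 0.04 and 0.19. SESN2, a leucine sensor, had 5523, 5574 and 11543 counts but an FPKM of 1.79, 1.06 and 2.01, so the 2-fold difference of clone 47 by counts was absent by FPKM. The transcription factor gene CEBPB was at 1.03 and 2.03 times. All 22 genes of mTORC1 and lysosomal sensing were within 2-fold in both clones, with medians of 0.07 and -0.05; LAMTOR3 was at 0.805 and 0.516 times and LAMTOR2 at 1.08 and 0.531 times. Accessory and trafficking genes, 12 tested, had 1 at least 2-fold lower in clone 47 (8.33% beside 7.57%) and 0 otherwise, with medians of -0.05 and -0.19. That 1 was the volume-regulated anion channel subunit gene LRRC8B, with 6624, 5439 and 2510 counts, and the kinase gene STK39 was at 0.919 and 0.586 times. Other mitochondrial transport genes, 20 tested, had 0 higher and 1 lower in clone 41 (5.0% beside 5.55%), and 3 higher (15% beside 9.42%) and 1 lower (5.0% beside 7.57%) in clone 47, with medians of 0.04 and 0.02. The mitochondrial serine carrier family gene SFXN5 was at 0.452 and 0.625 times and MTCH2 at 1.04 and 0.460 times.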

How the data were processed

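Strand-specific mRNA libraries were amplified by PCR and read from both ends, per the labels' protocols. The tools named are TopHat, TopHat2, Bowtie, Cuffdiff and Cufflinks 2.2.1, and the build is galGal4, per the submitters' processing notes. The deposited counts are whole reads per gene; no source used here gives the counting tool, annotation release or strand setting. The deposited FPKM values cover 11929 genes; the authors' cover sheet calls them normalised.

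From the counts, 10203 genes passed filterByExpr (minimum count 10, minimum total 15) in edgeR 4.0.16 and were scaled by TMM. The quasi-likelihood fit used the newer estimator. It gives no SE, so the SE printed was derived as the absolute log2 difference over the square root of the F statistic. The fit was also run on simulated data with the same dispersion for every gene, which does not show how it performs on these libraries. Log2 ratios used a prior count of 2, ratios of 2 libraries have exact conditional binomial 95% intervals (scipy 1.17.1), and floors are 3 counts per library, which is 0.06655, 0.0742 and 0.0688 CPM for control, clone 41 and clone 47. DESeq2 1.42.0 and limma 3.58.1 were alternatives. The labels name no replicate cultures.

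The members, substrate classes and lists were chosen with earlier results of these data known. Classes follow SLC family numbers with single exceptions, 1 of which (SLC4A1AP, not a transporter) was moved after its values were seen. Genes were named by rule: the 3 highest control FPKM per class and the 4 largest ratios at a mean CPM of at least 5 (2 in classes under 10), a fixed set, the 5 at each end per clone at that level, members near the count minimum, and 2 genes per companion list; 1 gene the rule takes is not reported here. A further 14 members were named after their values were seen: SLC2A6, SLC2A8, SLC2A12, SLC2A13, SLC5A7, SLC6A6, SLC6A9, SLC6A12, SLC6A19, SLC7A7, SLC7A9, SLC20A2, SLC25A29 and SLC39A8. The companion gene UCP3 was also named after its values were seen. No reference genome was used, and no sequence is shown. RefSeq names (GRCg7b) matched 191 members.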

Additional observations from a re-analysis of the deposited data

Results flagged for a closer look

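Besides the members, 8 SLC genes had a deposited FPKM and no read count in the tables used, and 6 of them stayed below 0.5 FPKM in every library. SLC24A5, a potassium-dependent sodium/calcium exchanger of pigment cells, had an FPKM of 2.27 in the control library, beside 2.36 for clone 41 and 3.95 for clone 47. SLC19A3, a thiamine carrier, had 0.204 in the control library, beside 0.122 for clone 41 and 0.743 for clone 47. Both drew attention as signal above the control in clone 47, in data outside the count-based comparisons, with 1 library per value and no test. In clone 41 SLC24A5 was little above the control and SLC19A3 was below it.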

How the results depend on the processing

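No paired analysis was possible because the labels give no replicate numbers and the control is 1 library; numbers given here in accession order only name the samples. Without 1 knock-in library the test has no residual degree of freedom, so it gives no value; the size counts of the remaining clone were the same as before (3 and 14 in clone 41, 24 and 19 in clone 47). The number of genes past the threshold, 0, became 2 with the legacy estimator, 2 with DESeq2 and 1 with limma-voom; on deposited FPKM of genes with a mean of at least 1 it was 12 on log2(FPKM + 1) and 10 on log2(FPKM + 0.1). No member passed in any of the 10 fits. For the members 2-fold from the control, log2(FPKM + 1) gave 0 higher and 0 lower in clone 41, 8 higher and 8 lower in clone 47, and 20 (in place of 57) apart between the clones; log2(FPKM + 0.1) gave 8 lower in clone 41. The larger pseudocount shrinks ratios of low genes by its construction. Members with a mean CPM of at least 5 gave 0 and 3, 9 and 12, and 27. Total-count scaling, which moves all ratios of a clone alike, turned the members' median to -0.0681 in clone 41 and 0.0126 in clone 47, and log2(FPKM + 0.1) turned it to -0.0359 in clone 41; at a mean CPM of at least 5 it was -0.095 in clone 47. Class medians also moved, for inorganic ions in clone 41 (-0.10 with total counts, -0.10 on log2(FPKM + 0.1)) and in clone 47 (0.0893 with total counts, -0.13 at 5 CPM), for neurotransmitters, osmolytes and peptides in clone 47 (0.0558 on log2(FPKM + 1), 0.10 on log2(FPKM + 0.1), 0.26 at 5 CPM), for non-transporters in clone 47 (0.23 on log2(FPKM + 1), 0.13 at 5 CPM) and for nucleosides, vitamins and choline (-0.75 at 5 CPM). The cause was not tested.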
